A study of Mus musculus with 8 samples.

Results

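Etv1, Etv4 and Etv5 are the PEA3 group of ETS transcription factor genes, 3 of the 22180 genes with values in this comparison. They were chosen by name, as the ETS genes placed downstream of the receptor RET, and all 3 were measured. Etv1 and Etv5 had more than 1 probe set, and the one with the highest mean over the 8 arrays stood for the gene. Kidneys of E14.5 mouse embryos, in midgestation, were compared between 4 embryos labelled Grb2 UB-cKO, which lack Grb2 in the ureteric bud, and 4 labelled wild-type control. All 8 came from 1 litter, and each array held the RNA of both kidneys of 1 embryo, so the 4 values of a group are separate animals. The sources used here do not give the Cre line that drove the deletion. The comparison asks how these factors respond when the adaptor GRB2 is removed from the ureteric epithelium.

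GDNF from the mesenchyme binds GFRA1 and RET on the tips of the ureteric bud, and RET passes the signal through adaptors such as GRB2 to RAS and ERK. ERK signalling from RET and from FGF receptors raises transcription of Etv4 and Etv5, in part by relieving repression by Capicua (CIC), and loss of both genes together blocks branching of the bud. PEA3 proteins bind DNA through an ETS domain, are activated by ERK and are degraded by a ubiquitin ligase that holds COP1 and DET1. In the embryonic kidney Etv4 and Etv5 are known from the bud tips and from the nearby mesenchyme, while Etv1 is better known from neurons, muscle spindles and the heart.

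Values are deposited log2 probe-set values, and changes are Grb2 UB-cKO minus control. The array medians were 6.61 to 6.72. Grb2 stood at 8.20 ± 0.12 against 8.65 ± 0.03 (SD, n = 4 each), a log2 change of -0.45 (SE 0.07, adjusted p = 0.0017 in limma). The means of 3 Y-linked genes were 9.94 to 10.1 in the 4 Grb2 UB-cKO embryos and 9.94 in control replicate 3, against 4.09 to 4.24 in the other controls, so sex differs between the groups as well as genotype. Of all genes, 14.3% were called lower and 13.7% higher at an adjusted p under 0.05. With their Y-linked mean as a covariate these shares were 2.76% and 2.85%, and Grb2 was not called, at -0.40 (adjusted p = 0.1). Against control replicate 3 alone Grb2 stood at -0.41. Only that control has high Y-linked values, so group changes under the covariate rest almost wholly on that embryo, here and below.

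On the probe sets used, Etv4 and Etv5 fell to well below their control levels in every Grb2 UB-cKO embryo, and Etv1 did not pass the threshold. Etv4 fell 2.80-fold and Etv5 2.52-fold, while the other Etv5 probe set had a log2 change of only -0.35. Of the 3 genes, 2 were called lower, beside the 14.3% of all genes. A fall of at least 2-fold with a call was seen in 0.509% of all genes, Etv4 and Etv5 among them.

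Etv4 read 8.12, 8.26, 8.23 and 8.71 in control replicates 1 to 4 and 7.09, 6.87, 6.64 and 6.77 in Grb2 UB-cKO replicates 1 to 4. The lowest control lay 1.03 above the highest Grb2 UB-cKO embryo, a gap far wider than the spread within either group. The means were 8.33 ± 0.26 and 6.84 ± 0.19 (SD, n = 4 each). The log2 change was -1.49 (SE 0.14, 95% interval -1.79 to -1.18), so the Etv4 signal was at 35.7% of its control level (28.9% to 44.1%). The Grb2 UB-cKO values lie at or little above the array medians (6.61 to 6.72). No detection calls were used, so the part of background in them cannot be told. Its adjusted p was 0.000114 in limma, and the two-sided exact permutation p over the 70 assignments of embryos was 0.0286, the smallest this design allows. By size of fall Etv4 was gene number 30 of 22180. It has a single probe set on the array.

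Etv5 read 9.28, 9.60, 9.83 and 9.87 in the controls and 8.35, 8.31, 8.16 and 8.43 in the Grb2 UB-cKO embryos. Again the groups did not overlap, with 0.85 between them, and the Grb2 UB-cKO embryos lay within a narrower range than the controls. The means were 9.65 ± 0.27 and 8.31 ± 0.11 (SD, n = 4 each). The log2 change was -1.33 (SE 0.13, 95% interval -1.62 to -1.05), or 39.7% of control (32.6% to 48.3%), with an adjusted p of 0.000126 in limma and an exact permutation p of 0.0286. Etv5 was number 40 by size of fall.

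The other Etv5 probe set showed a smaller difference. It read 6.62, 6.93, 6.76 and 6.67 in controls and 6.54, 6.23, 6.42 and 6.37 in Grb2 UB-cKO embryos. These groups did not overlap either, but the gap was 0.08. Its log2 change was -0.35 (SE 0.10, adjusted p = 0.0375 in a limma fit of all 41345 probe sets, where 9.33% were called lower). In that fit the probe set used stood at -1.33 (adjusted p = 0.000791). The mean of both Etv5 probe sets changed by -0.84 (adjusted p = 0.000225). The sources used here do not say which transcripts each probe set reads.

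Etv1 read 8.81, 8.83, 8.61 and 8.69 in the controls and 8.57, 8.51, 8.52 and 8.02 in the Grb2 UB-cKO embryos. The groups were 0.04 apart, and Grb2 UB-cKO replicate 4 lay well below the other 3. Groups that do not overlap, with Grb2 UB-cKO lower, were seen for 16.0% of all genes, so that order by itself sets Etv1 apart little. The means were 8.73 ± 0.10 and 8.40 ± 0.26 (SD, n = 4 each), a log2 change of -0.33 (SE 0.12, 95% interval -0.60 to -0.06). The adjusted p was 0.0724 in limma and the exact permutation p 0.0286. Without Grb2 UB-cKO replicate 4 the change was -0.20 (adjusted p = 0.0952).

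The other Etv1 probe set read 7.01, 6.92, 6.84 and 6.88 in controls and 6.89, 6.84, 6.75 and 6.28 in Grb2 UB-cKO embryos. Here the groups overlapped, and the same embryo, replicate 4, was again the low one. Its change was -0.22 (SE 0.13, adjusted p = 0.311 in the fit of all probe sets).

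**Figure D1:**
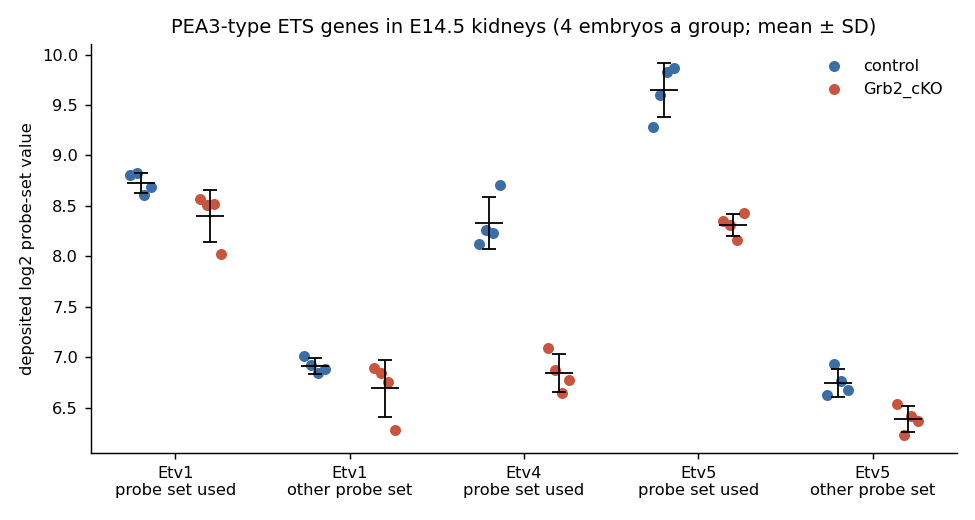
Deposited log2 values (vertical axis) of the 5 probe sets of Etv1, Etv4 and Etv5 in 4 control (blue) and 4 Grb2 UB-cKO embryos (red), each point 1 embryo, with mean and SD in black. The Etv4 values of 6.64 to 7.09 in Grb2 UB-cKO lie below the controls at 8.12 to 8.71, and those of Etv1 differ little apart from 1 embryo at 8.02.

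The changes of Etv4 and Etv5 were set against the values that differ between the groups beside genotype. With the Y-linked covariate the log2 change was -1.39 (SE 0.23, adjusted p = 0.016) for Etv4 and -1.53 (SE 0.20, adjusted p = 0.00803) for Etv5, and -0.20 (SE 0.20, adjusted p = 0.653) for Etv1. Control replicate 3, with Y-linked values as high as in the Grb2 UB-cKO embryos, read 8.23 for Etv4 and 9.83 for Etv5, within the range of the other 3 controls. Against that embryo as the only control, a setting added after the data were seen, Etv4 stood at -1.39 and Etv5 at -1.52. This setting assumes that the lone control varies like the Grb2 UB-cKO embryos. The fit with the Y-linked covariate leans on the same control embryo, so it is no separate check. In the erythroid list 5 of 6 genes were higher (1 with the Y-linked covariate), where 13.7% of all genes were. Its means were 6.52 to 7.17 in controls and 7.51 to 7.97 in Grb2 UB-cKO. With that mean as a covariate Etv4 stood at -2.25 and Etv5 at -2.0 (adjusted p = 0.0147 each, with 1.44% of genes called lower). Since the erythroid means do not overlap between the groups, this fit extrapolates and cannot set them apart from genotype.

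Promoter sequence was at hand for Etv1 and Etv5. It is shown because Etv5 fell and Etv1 was not called, and because CIC, a repressor of PEA3 genes, reads short motifs that can be searched for. RefSeq on GRCm38.p6 gives each of these genes more than 1 start, and the 250 bases before a start are printed, 5′ to 3′ on the strand of the gene. The lines are the second Etv5 start, inside the gene, on the minus strand at chr16:22438369-22438618, the first Etv5 start on the minus strand at chr16:22439571-22439820 and the first Etv1 start on the plus strand at chr12:38779832-38780081. Capitals mark TGAATG, the letters shared by the CIC octamers TGAATGAA and TGAATGGA, and AGGAAG, the classical PEA3 motif, each on either strand (CATTCA is TGAATG on the other strand).
Etv5 second start: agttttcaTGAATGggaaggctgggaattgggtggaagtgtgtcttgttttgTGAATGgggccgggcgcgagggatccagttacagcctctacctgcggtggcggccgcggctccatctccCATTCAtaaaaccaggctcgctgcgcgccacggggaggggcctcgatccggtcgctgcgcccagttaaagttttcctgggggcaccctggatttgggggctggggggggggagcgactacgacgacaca
Etv5 first start: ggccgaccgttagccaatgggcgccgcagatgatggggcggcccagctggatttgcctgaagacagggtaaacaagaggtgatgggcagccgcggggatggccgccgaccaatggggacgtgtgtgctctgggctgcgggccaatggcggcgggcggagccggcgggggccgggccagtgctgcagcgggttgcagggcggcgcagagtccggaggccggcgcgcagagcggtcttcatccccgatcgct
Etv1 first start: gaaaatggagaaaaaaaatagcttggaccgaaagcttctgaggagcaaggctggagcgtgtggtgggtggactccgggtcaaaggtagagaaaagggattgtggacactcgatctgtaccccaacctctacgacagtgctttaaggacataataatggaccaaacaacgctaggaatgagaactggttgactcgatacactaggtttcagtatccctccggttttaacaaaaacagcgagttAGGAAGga

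The window of the second Etv5 start held TGAATG 3 times, beginning 242 and 198 bases before the start on the gene's strand and lying 129 to 124 bases before it on the other strand. At least 1 copy was found in 10.9% of the 32851 RefSeq windows of this length, and at least 3 copies in 0.131%. These shares are for a single window and motif, while several member windows and motifs were searched. The motifs, TGAATG included, were chosen after the files were read, so the shares are no test. Each of the 3 copies reads on as TGAATGGG, so neither CIC octamer was matched in full. TGAATGGG itself was present in 0.931% of windows, and it was searched for after the sequence had been read. Neither the first Etv5 window nor either Etv1 window held TGAATG. The PEA3 motif AGGAAG was found 1 time before the first Etv1 start, from 8 to 3 bases upstream, in no other member window, and in 29.5% of all windows. CCGGAA, a common ETS core, was in no member window and in 12% of all windows. A match is a run of letters and no measured site.

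The changes of Etv4 and Etv5 each differed from that of Etv1 with all 8 embryos, and no difference between their own falls passed the test. Within each embryo the log2 value of 1 gene was subtracted from that of another, and the change of this difference was tested by exact permutation, with adjustment over the 3 differences. The difference Etv1 minus Etv4 rose by 1.16 (SE 0.20, exact permutation adjusted p = 0.0429). Relative to the control mean it was -0.42 to 0.28 in controls and 0.85 to 1.47 in Grb2 UB-cKO embryos, without overlap. Etv1 minus Etv5 rose by 1.0 (SE 0.25, exact permutation adjusted p = 0.0429), with the groups also apart at -0.31 to 0.44 and 0.51 to 1.27. Both differences lost the threshold when any 1 embryo other than Grb2 UB-cKO replicate 4 was left out (exact permutation adjusted p = 0.0857), at 1.02 to 1.25 for Etv4 and 0.90 to 1.15 for Etv5. Etv4 minus Etv5 changed by -0.15 (SE 0.13, exact permutation adjusted p = 0.286), and the groups overlapped, at -0.28 to 0.15 and -0.34 to 0.06. That p does not show that the falls are equal. With the mean of all probe sets of each gene, Etv4 minus Etv5 stood at -0.64 (exact permutation adjusted p = 0.0429) and Etv1 minus Etv5 at 0.57 (0.0571).

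RNA of a whole kidney cannot tell fewer cells of a type from less RNA per cell. The factors were therefore set beside markers of the ureteric epithelium as a whole, which are not markers of its tips. The same contrast with tip markers was not run. Of 15 measured markers 7 fell and 1 rose, beside 14.3% and 13.7% of all genes, and 4 of these 8 were called with the Y-linked covariate. The median log2 change was -0.26, against 0.0058 over all genes. List means ran from 8.74 to 8.84 in controls and from 8.15 to 8.42 in Grb2 UB-cKO embryos. Epcam, an adhesion gene of epithelia, fell by 1.14 (SE 0.14), and the bud gene Calb1, which encodes calbindin, fell by 3.53 (SE 0.32). Cdh1, which encodes E-cadherin, stood at -0.17 (adjusted p = 0.335 in limma).

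Relative to the mean of these markers in the same embryo, Etv4 fell by 0.99 (SE 0.16) and Etv5 by 0.84 (SE 0.15), each with an exact permutation adjusted p of 0.0429 over the 3 genes. Etv4 relative to the list was -0.16 to 0.35 in controls and -1.26 to -0.81 in Grb2 UB-cKO, around the control mean. For Etv5 the groups did not overlap either, at -0.31 to 0.20 and -1.06 to -0.68. For Etv1 the change was 0.16 (SE 0.15, exact permutation adjusted p = 0.314), and without Calb1 in the list it was -0.05 (0.8).

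**Figure D2:**
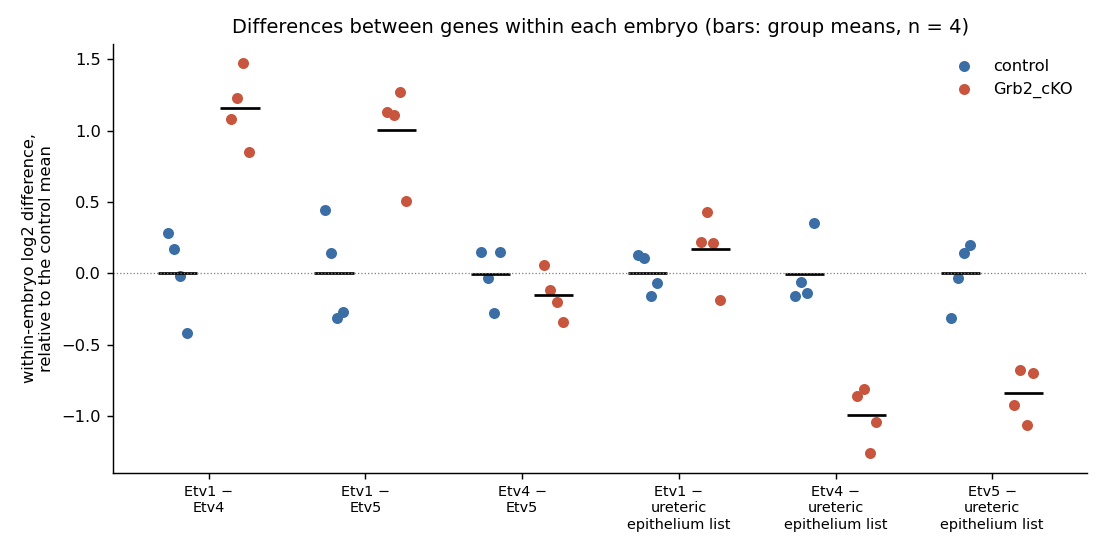
Within-embryo log2 differences between the genes, and between each gene and the mean of 15 ureteric epithelium markers (vertical axis, relative to the control mean), with 1 point per embryo, controls in blue, Grb2 UB-cKO in red and bars at group means. The differences of Etv1 to Etv4 and Etv5 lie above the controls, at 0.51 to 1.47, while that of Etv4 to Etv5 overlaps them.

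Markers of the cells where Etv4 and Etv5 are known to be expressed were lower as well, where 14.3% of all genes were called lower and 13.7% higher. In the tip list 7 of 9 genes fell and 1 rose (median -1.33), with means of 8.94 to 9.12 in controls and 7.65 to 8.02 in Grb2 UB-cKO. With the Y-linked covariate 5 of the 7 and the 1 higher gene were called. In the nephron progenitor list 10 of 13 fell and 1 rose (median -0.96), with means of 9.88 to 10.07 and 8.90 to 9.36. There 6 of the 10 were called with the covariate in limma, and the higher gene was not, nor at an unadjusted p under 0.05. Six2, the defining factor of these progenitors, read 10.2 and 10.1 in Grb2 UB-cKO replicates 1 and 2 and 8.37 and 8.44 in replicates 3 and 4, against 11.3 to 11.6 in controls, and was not called with the covariate (-2.02, adjusted p = 0.124). Etv4 was also higher in replicates 1 and 2 (7.09 and 6.87) than in 3 and 4 (6.64 and 6.77). Etv5 did not follow that order, since replicate 4 had its highest value (8.43). How much of each fall follows the number of tip or progenitor cells was not tested.

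Above the factors, the genes of the RET receptor complex and its ligand fell too. Ret read 9.51 to 9.77 in controls and 7.71, 7.14, 6.96 and 6.94 in Grb2 UB-cKO replicates 1 to 4. Its log2 change was -2.46 (SE 0.16), that of the co-receptor gene Gfra1 -1.92 (SE 0.14) and that of the ligand gene Gdnf -1.73 (SE 0.11). All 3 genes of this list were called lower (14.3% of all genes were), also with the Y-linked covariate, and Ret and Gfra1 are on the tip list too. Their mean ran 8.36, 8.16, 7.78 and 7.84 over Grb2 UB-cKO replicates 1 to 4, the order in which Etv4 ran. Taken singly, Gdnf had that order (8.25, 8.18, 7.75 and 7.97), while Ret and Gfra1 did not. Nor did Etv5. A link between these orders was not tested.

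Genes of the FGF input, which also feeds Etv4 and Etv5 through ERK, moved less. Of 10 measured ligand, receptor and adaptor genes 4 fell and 1 rose (median -0.15), beside 14.3% and 13.7% of all genes. Fgf20, a ligand gene of nephron progenitors, fell by 0.99 (SE 0.10) and was the 1 gene still called with the Y-linked covariate. Fgf9 fell by 0.67 (SE 0.13), Fgf8 by 0.49 (SE 0.14) and the receptor gene Fgfr2 by 0.42 (SE 0.06). Fgf7, a stromal ligand gene, rose by 0.43 (SE 0.13), a call lost without control replicate 1 or 4 and without Grb2 UB-cKO replicate 1 or 3 (0 higher each). Fgf10 stood at -0.12 and Fgfr1 at 0.06, not called.

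The RAS and ERK core between receptor and factors showed small changes both ways, with 4 of 11 measured genes lower, 4 higher and a median of -0.04. Among all genes the shares were 14.3% lower and 13.7% higher. The deleted gene Grb2 is itself on this list. It is among the lower genes and has the largest fall there (-0.45). Gab1, a docking protein gene, rose by 0.33 (SE 0.06) and Nras fell by 0.28 (SE 0.06). None of the 8 was called in limma with the Y-linked covariate (3 of the lower and 1 of the higher at an unadjusted p under 0.05). Without Grb2 UB-cKO replicate 3 the counts were 2 lower and 2 higher, and without control replicate 2 or 4 the higher count was 2.

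Among genes that act on the PEA3 factors, those of the CIC repressor rose. Cic read 8.94, 9.0, 9.04 and 9.14 in controls and 9.48, 9.45, 9.50 and 9.67 in Grb2 UB-cKO embryos, so every Grb2 UB-cKO embryo was above every control. How many of all genes share that order was not reported here. Its log2 change was 0.49 (SE 0.08, adjusted p = 0.00108 in limma). Atxn1 and Atxn1l, whose proteins bind CIC and stabilize it, rose by 0.39 (SE 0.10) and 0.29 (SE 0.08).

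Of the ubiquitin ligase, Cop1, its substrate-binding subunit gene, fell by 0.28 (SE 0.08), and the scaffold gene Cul4b fell by 0.28 (SE 0.08). Det1 (-0.15), Dda1 (0.02), Ddb1 (-0.17) and Cul4a (-0.18) were not called. In all 3 of these 9 genes were higher and 2 lower, beside 13.7% and 14.3% of all genes, so the lower count is near the general share. None was called with the Y-linked covariate in limma (2 of the higher at an unadjusted p under 0.05), where Cic stood at 0.48 (adjusted p = 0.0646). The 2 lower calls became 0 without control replicate 1 or 2 or Grb2 UB-cKO replicate 3 or 4, and 1 without control replicate 3 or Grb2 UB-cKO replicate 1 or 2.

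Below the factors, 4 bud genes known to need Etv4 and Etv5 split into 3 lower and 1 higher, beside 14.3% and 13.7% of all genes. Myb, a transcription factor gene, read 8.80 to 9.03 in controls and 7.82 to 7.99 in Grb2 UB-cKO, a log2 change of -1.02 (SE 0.08). Cxcr4, a chemokine receptor gene, read 9.53 to 9.87 and 8.5 to 8.89, a change of -1.01 (SE 0.10). Both groups were well apart for each gene.

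Met, the receptor gene for hepatocyte growth factor, read 9.25 to 9.42 in controls and 8.74 to 8.89 in Grb2 UB-cKO and fell by 0.55 (SE 0.07). Mmp14, a membrane-bound metalloproteinase gene, went the other way, at 10.57 to 10.68 and 11.00 to 11.36. It rose by 0.56 (SE 0.08, adjusted p = 0.000917 in limma). Under the Y-linked covariate its value was 0.50 (adjusted p = 0.0724), where the other 3 were still called. Stromal markers rose beside Mmp14, 10 of 11 of them, where 13.7% of all genes were called higher. Their means were 10.42 to 10.66 in controls and 11.12 to 11.32 in Grb2 UB-cKO, and 4 of the 10 were called with the covariate. The part of stromal cells in the Mmp14 value was not tested. The tip and nephron progenitor lists fell (median log2 changes -1.33 and -0.96), and the part of those cells in the Cxcr4, Myb and Met values was not tested either.

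Genes known to respond to ERK, as Etv4 and Etv5 do, had 9 of 17 measured members lower, 2 higher and 6 not called (median -0.31). The shares of all genes were 14.3% lower and 13.7% higher, so the higher count is near the general share. Spry1, a feedback inhibitor of RET, read 9.95 to 10.22 in controls and 8.79 to 8.97 in Grb2 UB-cKO embryos and fell by 1.23 (SE 0.08). The ERK phosphatase genes Dusp6 and Dusp5 fell by 1.11 (SE 0.08) and 1.09 (SE 0.12), and Spred1, an inhibitor of RAS activation, by 0.63 (SE 0.07).

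Egr1 (-0.03) and Fos (0.00), immediate early genes of the same list, were not called, nor was Myc (-0.21). Phlda1 and Ier3 rose by 0.54 (SE 0.14) and 0.52 (SE 0.15). Without control replicate 1, 2 or 3, or Grb2 UB-cKO replicate 1, 3 or 4, 1 gene was higher in place of 2. With the Y-linked covariate 5 of the 9 lower members were called in limma, and neither of the higher ones was, nor at an unadjusted p under 0.05.

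**Figure D3:**
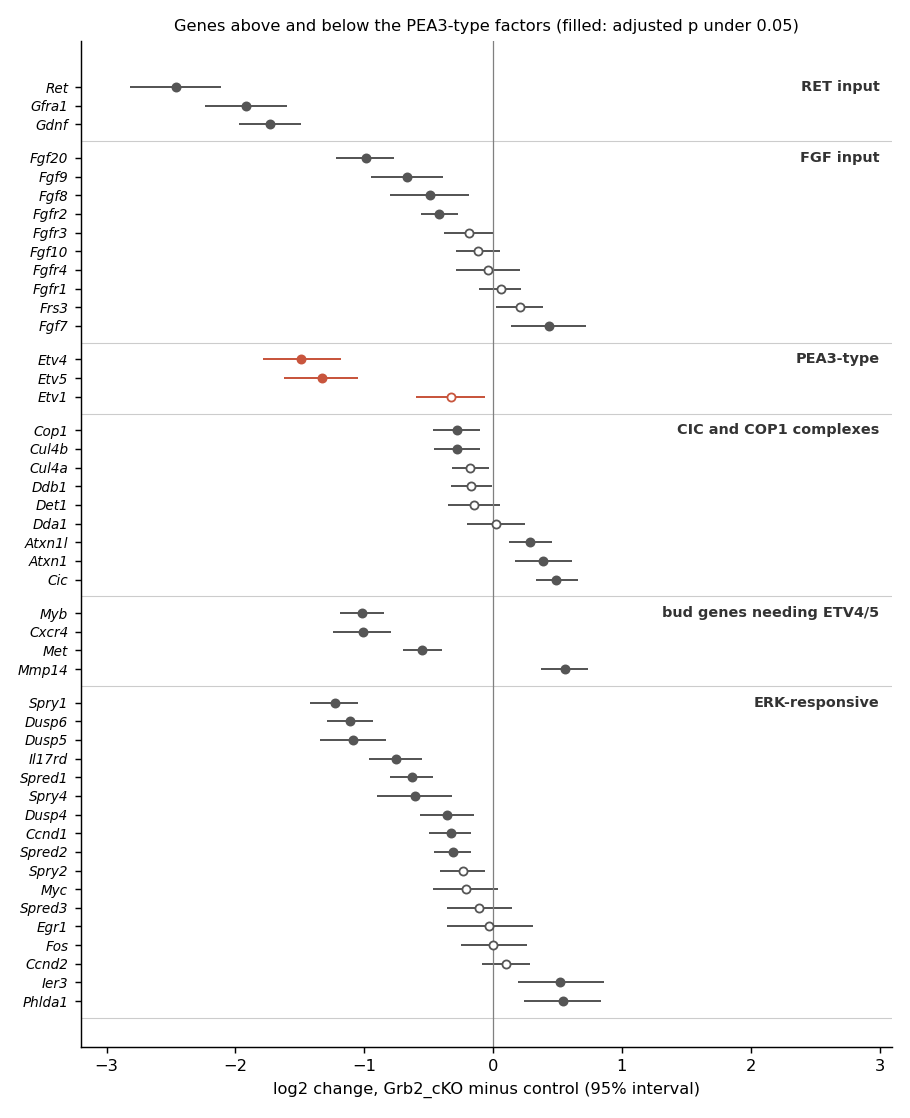
Log2 change with its 95% interval (horizontal axis) for genes grouped by role above and below the PEA3-type factors (red), with filled points where the adjusted p was under 0.05. Ret at -2.46 has the largest fall shown, Etv4 and Etv5 lie between it and Spry1 at -1.23, and Cic and Mmp14 lie to the right of 0.

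Among the 26 ETS genes measured, Etv4 and Etv5 had the most negative changes, followed by Ehf. Ehf, an epithelial ETS gene of the ESE group, read 7.75 to 8.01 in controls and 6.68 to 6.96 in Grb2 UB-cKO and fell by 1.02 (SE 0.09). It was also called with the Y-linked covariate, at -1.18 (adjusted p = 0.00611). Etv1 stood at number 5, after Elf5, which fell by 0.44 (SE 0.13). Gabpa, a widely expressed ETS gene, fell by 0.32 (SE 0.08). Its value under the covariate was -0.14 (adjusted p = 0.548).

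In all, 3 of the 23 ETS genes outside the PEA3 group fell, 5 rose and 15 were not called, with a median of 0.11. Over all genes 14.3% were called lower and 13.7% higher, so the lower count is near the general share. Spi1, the ETS factor of macrophages, rose by 0.58 (SE 0.08), and 7 of 9 macrophage markers rose too, with means of 7.21 to 7.44 in controls and 8.16 to 8.56 in Grb2 UB-cKO, and 4 of the 7 called with the Y-linked covariate. Erg, a factor of endothelial cells, rose by 0.46 (SE 0.08), beside 6 of 9 endothelial markers, with means of 9.83 to 9.92 and 10.08 to 10.37, and 0 of the 6 called with the covariate in limma (5 at an unadjusted p under 0.05). The part of those cells in both values was not tested. Elf4, Elk1 and Erf, a repressor that ERK exports from the nucleus, rose by 0.45 (SE 0.08), 0.42 (SE 0.12) and 0.31 (SE 0.10).

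Without control replicate 1 or 2 or Grb2 UB-cKO replicate 4, 3 ETS genes were higher in place of 5. Without control replicate 4 the higher count was 7. With the Y-linked covariate Ehf and Spi1 alone of the 8 were called. Ets1, Ets2, Fli1 and Etv6 were not called, at 0.15, 0.03, 0.14 and 0.25.

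**Figure D4:**
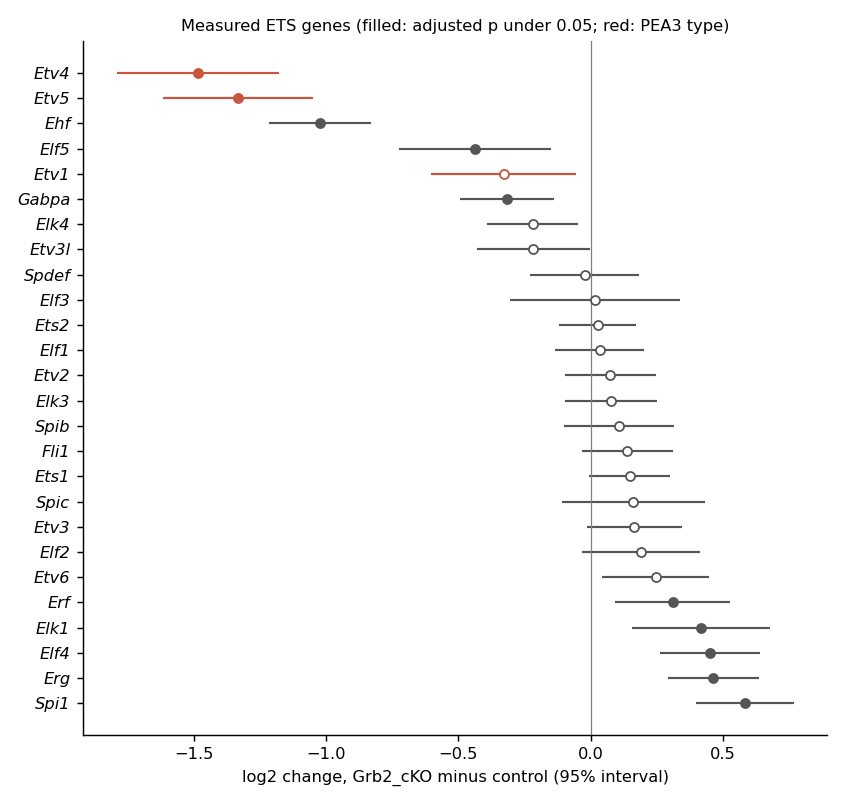
Log2 change with its 95% interval (horizontal axis) for the 26 measured ETS genes, ordered by change, with PEA3-type genes in red and filled points where the adjusted p was under 0.05. Etv4 (-1.49) and Etv5 (-1.33) are at the top, and the 5 genes at the bottom rose by 0.31 to 0.58.

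Likeness of profiles was measured as the root mean square difference between the log2 values of 2 genes over the 8 arrays, each gene taken relative to its own mean, over 17428 genes. Closest to Etv5 were Spry1 (0.149), Aldh1a3 (0.151), a retinaldehyde dehydrogenase gene, Uncx (0.156), Ism1 (0.164) and Dusp5 (0.176). Closest to Etv4 were Btbd11 (0.138), Uncx (0.156), Gar1 (0.174), Phf19 (0.177) and Etv5 (0.179), and Etv4 was number 9 for Etv5. Uncx, a homeobox gene of the mesenchyme, is on both. The genes closest to Etv1 were Gsdma2 (0.0535), Tppp2 (0.0693), Btbd35f12 (0.0748), Ccdc150 (0.0845) and Nhej1 (0.0859), none of them called. This measure rewards a change of like size between the groups, which all 8 arrays share.

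**Figure D5:**
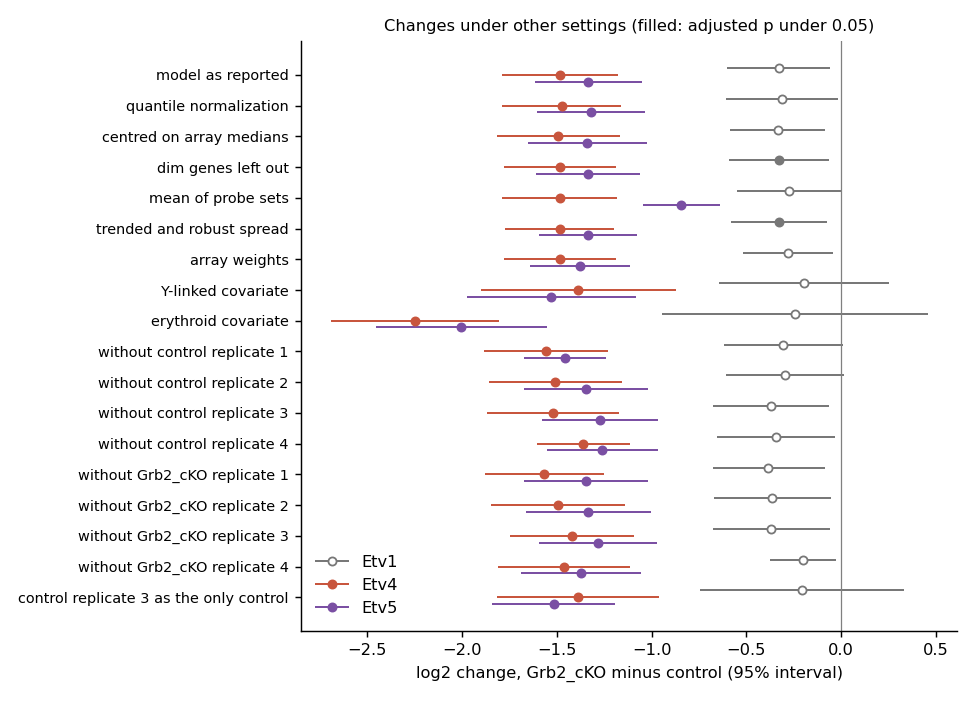
Log2 change with its 95% interval (horizontal axis) of Etv1 (grey), Etv4 (red) and Etv5 (purple) under the reported model and other settings (vertical axis), with filled points where the adjusted p was under 0.05. Etv4 and Etv5 are filled throughout, from -2.25 to -0.84, and Etv1 is filled under 2 settings at -0.33.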

How the data were processed

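RNA of whole kidneys of 8 embryos was measured on 1-colour arrays from 200 ng of total RNA per embryo, per the labels' protocols. The authors deposited log2 values of 41345 probe sets, made with the Transcriptome Analysis Console, per the submitters' processing notes. Background correction, summarization and normalization were not given in the sources used here, and values of 1.25 to 14.08 set the scale as log2. No detection calls or scan dates were used here. The number of arrays limits the precision.

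Of the probe sets, 23521 had 1 symbol in the platform annotation, updated through the Entrez identifier and RefSeq (GRCm38.p6). The 22180 genes were fitted in limma 3.58.1 (R 4.3.3) without covariate, and p-values were adjusted by Benjamini-Hochberg over every gene fitted and called under 0.05. Adjusted p-values come from this fit unless another test is named. The script was tested on simulated data. Single values were tested by exact permutation of embryos, two-sided. Replicate numbers follow the order of the records and pair nothing.

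Members and gene lists were chosen with earlier results of these data known. Named were the members, Grb2, any gene of the RET, CIC and COP1, Etv4 and Etv5 dependent and ETS lists, up to 4 genes of smallest p and the defining markers of other lists, and the 5 genes of most like profile. Cdh1, Fgf10, Fgfr1, Egr1, Fos, Myc, Phlda1, Ier3 and Fgf7 were named after their values were seen. Motifs were chosen after the files were read. Alternatives were other normalization, centring, filters, probe sets, spread, weights and covariates, and leaving out each embryo.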

Additional observations from a re-analysis of the deposited data

Results flagged for a closer look

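Within a group of 4 embryos, a value was marked where its gap to the nearest other value, divided by the range of the group, was above Dixon's critical value for 4 samples. This was asked of 212 groups of 4 and marked 13 values, where chance marks about 1 in 20 groups. Among the PEA3 group 1 value was marked, Etv1 in Grb2 UB-cKO replicate 4 at 8.02, against 8.51 to 8.57 in the other 3. In the same embryo Spi1 (7.73) was marked high. Gsdma2 (3.94) and Ccdc150 (5.53) were marked low there. Both were picked for profiles like that of Etv1, so their marks follow from that choice and add nothing to the Etv1 mark. The 13 marked values include them.

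Among genes that act on the PEA3 factors, Atxn1 was low in control replicate 4 (9.65) and Cul4b high in Grb2 UB-cKO replicate 2 (10.8). Fli1 was high in Grb2 UB-cKO replicate 3 (10.51) and Spred1 high in Grb2 UB-cKO replicate 1 (9.75). Of the markers, Foxd1 (9.36) and Th (6.49) were low in Grb2 UB-cKO replicate 2, Calb1 (11.71) was high in control replicate 1, Krt18 (9.68) was low in control replicate 4 and Cd68 (7.94) was low in control replicate 2.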

How the results depend on the processing

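The changes of Etv4 and Etv5 kept their direction and passed the threshold under all 19 and 20 alternatives, at -2.25 to -1.36 and -2.0 to -0.35. The values of -2.25 and -2.0 came from the erythroid covariate, whose means do not overlap between the groups. Those with the Y-linked covariate and with control replicate 3 alone rest on the same control embryo. Etv1 stayed negative under its 20 (-0.38 to -0.20). It passed the threshold without the dimmest genes (-0.33, adjusted p = 0.0482) and with a trended and robust spread (-0.33, adjusted p = 0.0496). With probe sets averaged per gene, Etv1 minus Etv5 changed by 0.57 and no longer passed, and Etv4 minus Etv5 changed by -0.64 and did. Leaving out 1 embryo, Etv1 minus Etv4 changed by 1.02 to 1.26 and Etv1 minus Etv5 by 0.90 to 1.17, with exact permutation adjusted p-values of 0.0857 except without Grb2 UB-cKO replicate 4 (0.0429). The exact test takes few values here, and 0.0857 is the next step above 0.0429. Why Grb2 UB-cKO replicate 4 differs from the other embryos was not tested. Etv1 relative to the epithelial list turned to -0.05 without Calb1. No alternative moved Etv4 or Etv5 relative to that list across the threshold (-1.21 to -0.77). Of 154 counts of called genes in the lists, 108 stayed within 1.5 times the reported count and 46 were lower. A list without RET targets was not run, since the epithelial list shared no gene with the tip, ERK-responsive and Etv4 and Etv5 dependent lists. Whether the epithelial markers respond to RET was not tested. No paired analysis was possible because the replicate numbers are only names. No detection calls were at hand, so a weak probe set cannot be told from background.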
